A study of Mus musculus with 22 samples.

Results

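The PolII peaks described here lie at 2 loci of the mouse genome (mm9): the Myc and Pvt1 locus, taken as chr15:61780000-62200000, and the miR-17-92 locus, taken as chr14:115430000-115470000. They were selected by position, as every peak listed inside these windows, and the windows were chosen with peaks of these lists in view, so that presence of PolII there is a description and not a test. The windows held 432 of the 1309572 peaks called in 18 PolII chromatin immunoprecipitation (ChIP-seq) libraries, 299 in the Myc-Pvt1 window and 133 in the miR-17-92 window. Overlapping peaks of all libraries were merged into regions, of which 51 of 169903 fell in the windows, 46 and 5 respectively.

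All cells were G1E-ER4, a subline of the GATA1-null mouse proerythroblast line G1E, in which both CTCF alleles carried a fusion to the AID-mCherry domains and a TIR construct allowed auxin to trigger CTCF degradation. Cells were arrested with 200 ng/ml nocodazole and sorted either without release, as prometaphase, or once released, with early-G1 taken at 60 min, mid-G1 at 120 min and late-G1 at 240 min. At each stage, control cells without auxin were compared with cells given auxin during the synchronization and after release, which were sorted for low mCherry. Each arm had 3 libraries in mid-G1 and 2 in every other stage; the 4 stage inputs had no peak list of their own. All groups therefore share nocodazole arrest, sorting and the tagged CTCF alleles, and PolII lists alone cannot show how far CTCF was removed. The study calls its replicates biological, but neither it nor the labels said that they came from separate cultures, so that p-values measure the spread between these libraries. The study's own file lists conflict on the arm of late-G1 replicate 1. Its read files name an auxin replicate 1 and no control replicate 1, and its peak lists name the reverse. The labels, which give this library as auxin, were followed. The late-G1 auxin values and the averages over stages rest on that label.

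Prometaphase lists held 2414 to 3918 peaks and post-mitotic lists 50594 to 117125 peaks over 22.7 to 73.3 Mb, from libraries with a background of 4.54 to 13.3 reads per kb as solved from the peak statistics. The shallowest was mid-G1 control replicate 1, at 4.54 reads per kb and 50594 peaks. Of 12 genes that mark erythroid cells and progenitors, 11 had a peak over their start in all 14 post-mitotic libraries, and 12 of 12 genes of other lineages had one in none.

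Myc is a transcription factor that drives ribosome production, metabolism and entry into the cell cycle, and it is expressed in proliferating erythroid progenitors. Pvt1 is the long non-coding RNA gene just downstream of Myc, a frequent site of chromosome breaks and viral insertions, whose body contains enhancers that can act on Myc. The miR-17-92 cluster is processed from one transcript, that of the host gene Mir17hg. It is a known direct target of Myc, and its miRNAs repress regulators of the cell cycle and of cell death such as E2f1 and Bcl2l11.

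In mm9, Myc occupied chr15:61816946-61821929 and Pvt1 began at chr15:61869542 and ran to position 62209651, both on the plus strand, so that the window left out the last 9651 bp of Pvt1. Mir17hg occupied chr14:115442101-115445949 on the plus strand, with the 6 miRNA genes between positions 115442893 and 115443728. Gpc5, the nearest protein-coding gene downstream, began at position 115491437, outside the window. Beyond the window edges, the nearest merged regions were 1480 kb to the left and 440.305 kb to the right of the Myc-Pvt1 window, and 208.689 kb to the left and 3018.19 kb to the right of the miR-17-92 window. Each of these 4 outside regions was listed in 1 to 9 of the 14 post-mitotic libraries.

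The mature miRNAs are shown because they are the products of the locus, and because their shared seeds group them into families. They are taken from RefSeq (GRCm38.p6), 5′ to 3′, with bases 2 to 8, the seed, in capitals. The seeds of miR-17-5p and miR-20a-5p are the same, as are those of miR-19a-3p and miR-19b-3p.
miR-17-5p: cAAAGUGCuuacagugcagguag
miR-20a-5p: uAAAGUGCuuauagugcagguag
miR-18a-5p: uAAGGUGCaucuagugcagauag
miR-19a-3p: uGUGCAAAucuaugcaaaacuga
miR-19b-3p: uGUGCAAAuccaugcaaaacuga
miR-92a-3p: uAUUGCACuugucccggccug

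The promoter of Myc and the DNA under the other summits that recurred in all 14 post-mitotic libraries are shown because the results below turn on these positions. Each sequence is 300 bases of the mm9 plus strand, 5′ to 3′. The Myc promoter at chr15:61816646-61816945 is the stretch just before the annotated start. The Myc downstream peak at chr15:61822590-61822889, the Pvt1 internal peak at chr15:62053843-62054142, the miR-17-92 upstream peak at chr14:115440072-115440371 and the miR-17-92 downstream peak at chr14:115448344-115448643 are centred on the median summit. Capitals mark matches, on either strand, to the E-box CACGTG, the GATA site AGATAA, the CTCF core AGGNGGC, the TATA box TATAAA, the GC box GGGCGG, the E2F site TTTCCCGC and the polyadenylation signal AATAAA. Neighbouring capitals can be overlapping or adjoining matches.
Myc promoter: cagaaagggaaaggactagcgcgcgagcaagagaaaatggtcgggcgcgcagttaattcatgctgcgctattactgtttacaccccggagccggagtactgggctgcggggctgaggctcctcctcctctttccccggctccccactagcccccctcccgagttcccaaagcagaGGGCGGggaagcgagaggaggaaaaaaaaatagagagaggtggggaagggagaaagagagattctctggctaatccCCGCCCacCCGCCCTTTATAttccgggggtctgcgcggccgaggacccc
Myc downstream peak: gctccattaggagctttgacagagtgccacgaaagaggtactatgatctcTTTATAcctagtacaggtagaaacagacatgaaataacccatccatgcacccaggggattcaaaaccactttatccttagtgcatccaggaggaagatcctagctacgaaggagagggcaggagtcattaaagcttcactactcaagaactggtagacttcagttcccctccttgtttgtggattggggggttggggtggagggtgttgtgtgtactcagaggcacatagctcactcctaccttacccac
Pvt1 internal peak: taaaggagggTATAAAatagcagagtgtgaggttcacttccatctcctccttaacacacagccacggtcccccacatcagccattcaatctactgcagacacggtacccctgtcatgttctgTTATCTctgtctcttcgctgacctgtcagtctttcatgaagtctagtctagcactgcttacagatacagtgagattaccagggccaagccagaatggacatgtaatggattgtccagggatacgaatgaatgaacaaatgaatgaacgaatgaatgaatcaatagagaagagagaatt
miR-17-92 upstream peak: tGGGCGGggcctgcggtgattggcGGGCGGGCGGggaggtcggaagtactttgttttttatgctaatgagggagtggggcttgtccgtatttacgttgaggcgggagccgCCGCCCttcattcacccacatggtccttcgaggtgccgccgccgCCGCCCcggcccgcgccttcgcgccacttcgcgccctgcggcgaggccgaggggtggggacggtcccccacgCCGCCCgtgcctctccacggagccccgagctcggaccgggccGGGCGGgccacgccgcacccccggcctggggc
miR-17-92 downstream peak: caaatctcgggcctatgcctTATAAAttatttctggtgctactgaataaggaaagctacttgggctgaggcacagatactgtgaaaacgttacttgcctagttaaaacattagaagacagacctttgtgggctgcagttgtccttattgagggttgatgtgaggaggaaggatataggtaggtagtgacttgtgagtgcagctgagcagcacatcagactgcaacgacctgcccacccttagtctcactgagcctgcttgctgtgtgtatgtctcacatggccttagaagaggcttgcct

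The Myc promoter held 3 GC boxes and 1 match to TATAAA and was 60.3% G and C. The TATAAA match was to the minus strand, and the plus strand there reads TTTATA. The miR-17-92 upstream peak held 7 GC boxes and was 73.3% G and C. The Myc downstream, Pvt1 internal and miR-17-92 downstream peaks were poorer in G and C, at 48%, 44% and 47%, and each held 1 match to the TATA box, with 1 GATA site in the Pvt1 internal peak. For comparison, a GC box was found in 40.9% of 22380 windows of this length before coding starts and in 35.8% of 15784 windows around the best summits of regions detected in all 14 libraries. TATAAA was found in 14.6% and 9.38% of these windows and AGATAA in 11.5% and 11.1%, and their median G and C content was 53.3% and 54.3%. The E-box, the CTCF core, the E2F site and the polyadenylation signal, found in 7.39%, 29.5%, 1.2% and 21.4% of the windows before coding starts and in 8.01%, 29.6%, 1.29% and 15.5% of those around summits, were absent from the letters of all 5 sequences.

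PolII was already listed at both loci in prometaphase. Of the 169903 regions, 2.17% had a peak in any prometaphase library, and these included 2 of the 46 Myc-Pvt1 regions and 2 of the 5 miR-17-92 regions. At Myc, each of the 4 prometaphase libraries had 1 peak over the start, with its summit 151 to 237 bp past it. Its fold enrichment over input was 14.8 and 16.3 in control and 22.5 and 20.1 with auxin. It ranked 303.5 and 251.5 among the peaks of its list in control and 130 and 131.5 with auxin. By both measures the auxin libraries were higher, and how many other regions separated in this way was not counted. Covered bases of the Myc gene were 0.603 and 0.426 kb in control and 0.433 and 0.495 kb with auxin, so that by this measure the groups overlapped. Auxin replicate 1 alone had a second peak, 1740 bp past the end of Myc, with a fold enrichment of 5.5. Pvt1 had no peak in any prometaphase library.

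At miR-17-92, prometaphase PolII was spread over several small peaks. The window held 8 and 7 peaks in control and 7 and 3 with auxin, over 2.32 and 1.90 kb and 1.74 and 0.823 kb. The strongest peak lay at −1868 to −1847 bp from the annotated start of Mir17hg in both controls (fold enrichment 13.1 and 9.14) and in auxin replicate 1 (11.5), and no peak was listed there in auxin replicate 2. A peak at 2414 to 2643 bp past the end of the gene was present in the same 3 libraries, with fold enrichments of 5.8, 7.9 and 6.38. Mir92-1, which encodes miR-92a, was covered over 85% of its length in control replicate 1 and 82.5% in auxin replicate 2, and not at all in the other 2. Prometaphase lists were short and entered no test.

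**Figure D1:**
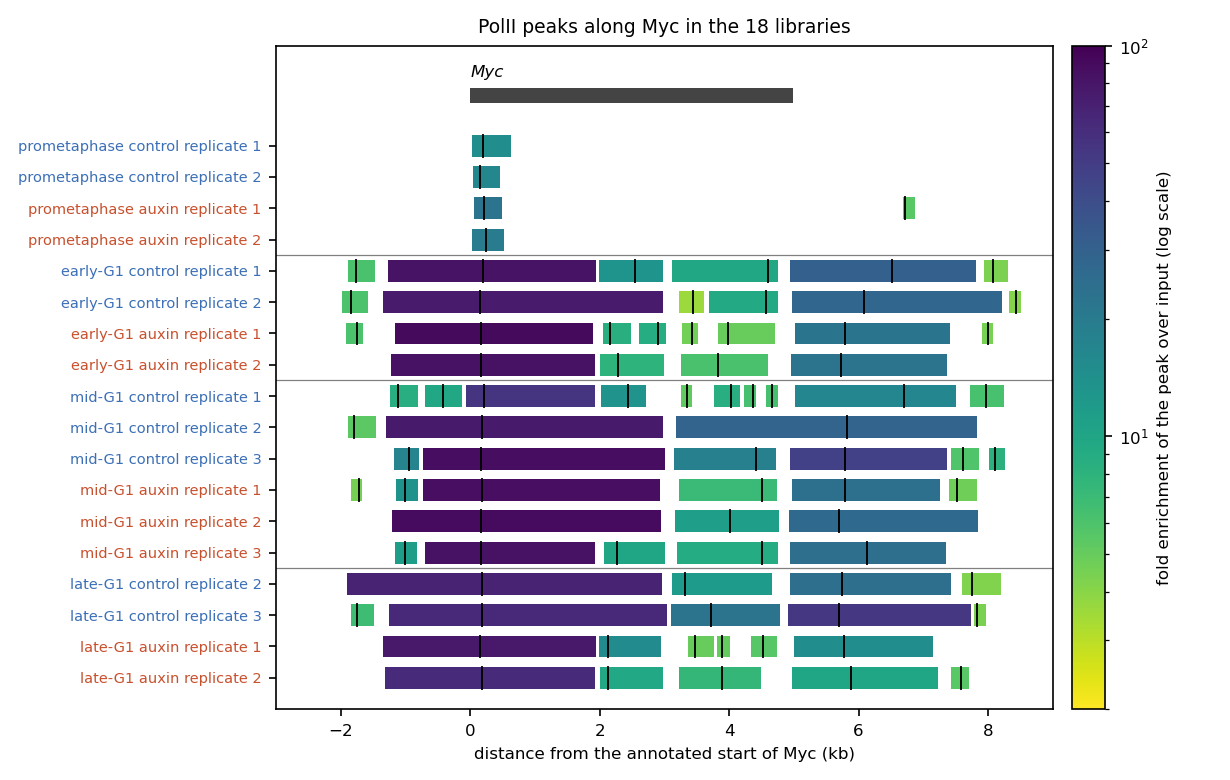
PolII peaks along Myc in the 18 libraries, as distance from the annotated Myc start in kb; each row is a library (blue labels control, orange labels auxin), bars are peaks coloured by fold enrichment over input on a log scale, and black ticks are summits. The 4 prometaphase libraries had a single peak over the start, and every post-mitotic library had a strong peak over the start and a further peak with its summit past the gene end.

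In G1, PolII at the Myc start was among the strongest peaks of every list. The peak over the start ranked within the first 0.0558% to 0.313% of its list, with its summit in an exon of Myc, 155 to 206 bp past the start in all 14 libraries. Fold enrichment was 83.0 and 75.9 in early-G1 control and 89.9 and 83.4 with auxin, 54.8, 76.4 and 87.4 in mid-G1 control and 86.5, 89.1 and 83.5 with auxin, and 68.6 and 64.5 in late-G1 control and 77.3 and 62.9 with auxin. The lowest of these was the shallowest library, and control and auxin values overlapped in mid-G1 and late-G1.

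To compare libraries of unequal depth, each merged region was given the rank of its strongest peak within its library, where rank 1 is the highest fold enrichment, and changes are of −log2 rank, so that a negative change is a fall down the list. Tests (limma, Benjamini-Hochberg adjusted p, threshold 0.05) ran over the 15784 regions listed in all 14 post-mitotic libraries, which included 3 of the 46 Myc-Pvt1 regions and 2 of the 5 miR-17-92 regions (9.3% of all regions passed this requirement). The other 46 regions of the windows were not tested. Averaged over the 3 stages, 0.729% of tested regions differed between auxin and control (115 regions), and 0.336% were lower with auxin (53 regions). Of the 5 tested regions of the windows, 2 were lower with auxin and none was higher: the region past the end of Myc and the region past the end of Mir17hg. Within stages, 0 of 5 passed in early-G1 (0.0127% of all regions, either direction), 1 was lower in mid-G1 (0.101% of all regions were lower) and 0 passed in late-G1 (0.0697%, either direction). The late-G1 count rested on 1 library: without late-G1 control replicate 2, 303 in place of 11 of all regions passed, and 1 region of the windows was lower (Myc downstream, −3.92, adjusted p = 0.00748) and 1 higher (miR-17-92 host gene, +1.74, adjusted p = 0.0221). With replicate number within stage as a block, 32 in place of 16 of all regions were lower in mid-G1, and the count in the windows was again 1, at −2.84 (adjusted p = 0.000672).

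The Myc start region (chr15:61814967-61819984) did not pass the test in either comparison. It ranked 83 and 70.5 in early-G1 control against 54 and 70.5 with auxin, 148.5, 77.5 and 79 in mid-G1 control against 78.5, 77 and 64 with auxin, and 123 and 204.5 in late-G1 control against 88 and 158 with auxin. The groups touched or overlapped at every stage. The average auxin change was +0.38 ± 0.21 (SE; limma, adjusted p = 0.539). From early-G1 to late-G1 the change was −1.05 ± 0.39 in control (adjusted p = 0.146) and −0.93 ± 0.39 with auxin (adjusted p = 0.193).

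The Myc downstream region (chr15:61820049-61825254) spans the 3′ part of the gene and the DNA past it, and its strongest summit lay in intergenic sequence 713 to 1721 bp beyond the annotated end. It ranked 2548.5 and 2579.5 in early-G1 control and 5400 and 5061.5 with auxin. In mid-G1 the ranks were 2970.5, 1272 and 600.5 in control and 4035, 4202.5 and 3569.5 with auxin. In late-G1 they were 2746.5 and 563 in control and 7058 and 10223.5 with auxin. Every auxin library thus ranked below every control library in each of the 3 stages, which was the case for 1.07% of tested regions. In mid-G1, fold enrichment itself overlapped, at 16.5, 29.0 and 47.3 in control and 24.1, 26.6 and 24.2 with auxin.

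The average auxin change of the Myc downstream region was −1.79 ± 0.36, a rank number 3.47 times as high with auxin (limma, adjusted p = 0.0283). The call rested on single libraries: it was lost when any 1 of 10 of the 14 libraries was left out, with adjusted p from 0.00267 to 0.1 over the 14 omissions and changes of −2.17 to −1.41. Under a normal score of the rank in place of its logarithm the change was −0.66 with an adjusted p of 1. By stage, the auxin change was −1.03 ± 0.65 in early-G1 (adjusted p = 0.999), −1.58 ± 0.53 in mid-G1 (adjusted p = 0.355) and −2.77 ± 0.65 in late-G1 (adjusted p = 0.249). These 3 changes were not shown to differ from each other, with adjusted p of 0.946 for late-G1 against early-G1, 1 for mid-G1 against early-G1 and 0.843 for late-G1 against mid-G1.

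The share of the Myc gene under peaks was 92.7% and 89.0% in early-G1 control and 77.8% and 85.9% with auxin. It was 71.8%, 95.9% and 92.7% in mid-G1 control and 89.8%, 92.6% and 89.7% with auxin, and 91.4% and 96.2% in late-G1 control and 77.8% and 83.9% with auxin. The auxin libraries lay below the controls in both early-G1 and late-G1, while the mid-G1 values overlapped. The total under peaks in each library differed likewise, at 66.7 and 73.3 Mb in early-G1 control and 57.1 and 56.8 Mb with auxin. In late-G1 it was 52.0 and 70.2 Mb in control and 47.3 and 42.1 Mb with auxin. Per Mb under peaks, Myc held 64.9 ± 6.16 and 71.6 ± 5.33 bases in early-G1 control and auxin (mean and SD). The late-G1 values were 78.0 ± 13.7 and 90.7 ± 12.3, and the mid-G1 values 110 ± 41.0 and 88.5 ± 21.1. Whether list size accounts for the lower share was not tested. On the arcsine square root scale, centred on each library's median gene, the auxin change was −0.08 ± 0.03 (adjusted p = 0.425), where 0.739% of the 9876 genes tested passed. The median gene tested had 4.19% to 19.2% of its length under peaks.

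**Figure D2:**
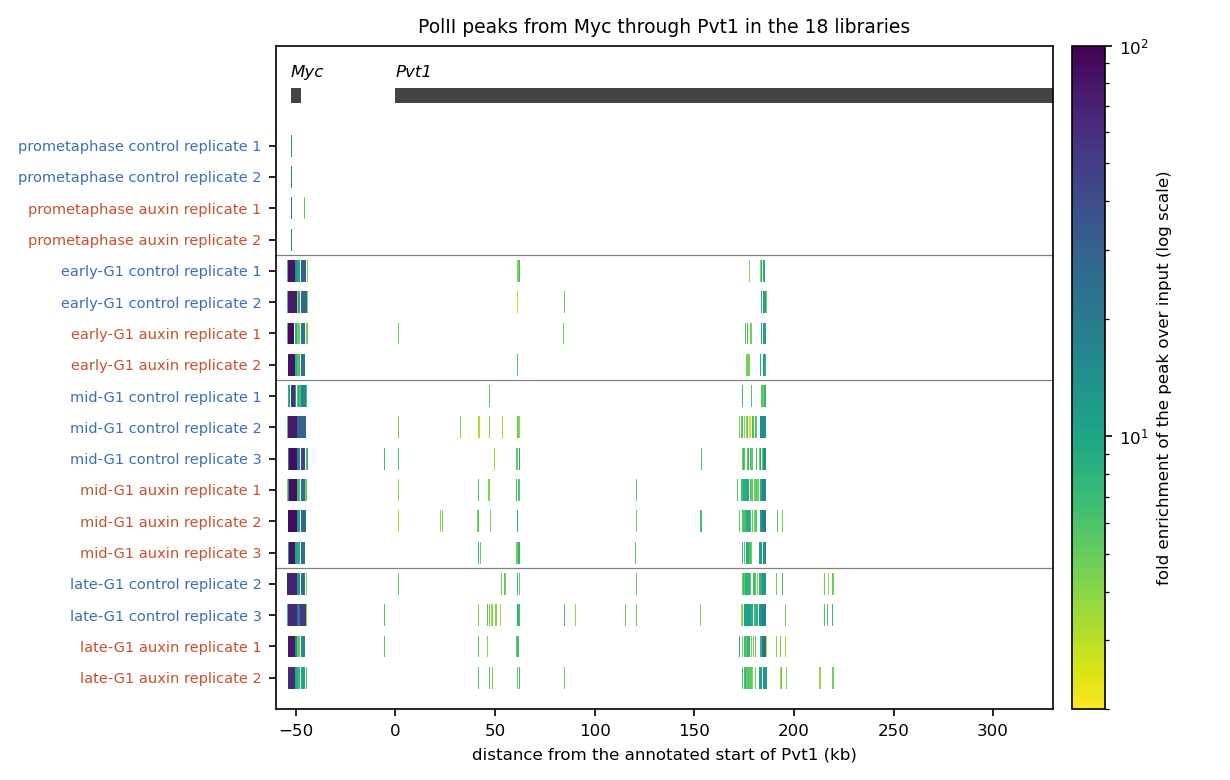
PolII peaks from Myc through Pvt1 in the 18 libraries, as distance from the annotated Pvt1 start in kb; rows and colours are as in the map of Myc, on the same log colour scale. Peaks within Pvt1 were sparse near its start, gathered at about 61 kb and between 150 and 200 kb, and were absent beyond 250 kb.

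Pvt1 had no peak over its annotated start in any library. The nearest region inside the gene (chr15:61870669-61870972) was listed in 6 of 14 post-mitotic libraries, 3 control and 3 auxin, with a summit 1208 to 1303 bp past the start and a fold enrichment of 3.3 to 5.91. Of the 42 regions inside Pvt1, 21 were listed in 1 library, 15 in 2 to 4, 3 in 5 to 11 and 3 in 12 or more. The 39 in fewer than 12 libraries had fold enrichments of 2.98 to 8.29 and widths of 161 to 2403 bp. Over the whole series, 41.7% of regions were listed in a single library.

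The region that recurred in all 14 libraries (the Pvt1 internal region, chr15:62052191-62055836) lay in an intron, with a median summit 184450 bp past the Pvt1 start. Its fold enrichment was 8.88 and 10.2 in early-G1 control, 10.9 and 11.3 in early-G1 auxin, 7.54, 14.5 and 13.1 in mid-G1 control, 17.6, 18.9 and 14.2 in mid-G1 auxin, 12.0 and 16.9 in late-G1 control, and 23.7 and 12.5 in late-G1 auxin. It ranked 13582 and 11060.5 in early-G1 control against 11133.5 and 10280 with auxin, 10698.5, 6091.5 and 9260.5 in mid-G1 control against 6617, 6817 and 7771.5 with auxin, and 8561.5 and 8848 in late-G1 control against 3224.5 and 7780.5 with auxin. By rank the groups overlapped in early-G1 and mid-G1, and both auxin libraries were higher in late-G1. The average auxin change was +0.42 ± 0.21 (adjusted p = 0.485), and from early-G1 to late-G1 the change was +0.49 ± 0.38 in control (adjusted p = 0.506) and +1.09 ± 0.38 with auxin (adjusted p = 0.119). Without late-G1 auxin replicate 2 the last of these was +1.73, with an adjusted p of 0.048.

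A broader region to its left (chr15:62043013-62049135) was listed in 13 of the 14 libraries, all but early-G1 control replicate 2. Its fold enrichment was 3.84 in early-G1 control replicate 1 and 6.39 and 5.03 with auxin, 7.49, 6.36 and 7.75 in mid-G1 control and 9.03, 8.46 and 8.69 with auxin. The late-G1 values were 8.11 and 10.8 in control and 7.61 and 7.98 with auxin. By fold enrichment, auxin libraries were above the controls in early-G1 and mid-G1 and below them in late-G1. By rank the groups overlapped in mid-G1, at 11089.5, 17924 and 16143.5 in control and 13355.5, 15438.5 and 12357.5 with auxin. They also overlapped in late-G1, at 13135.5 and 12989.5 in control and 14375 and 12614.5 with auxin. In early-G1 the ranks were 60520 in control replicate 1 and 24466.5 and 38377.5 with auxin. The region at chr15:61930126-61931707, about 61 kb into the gene, was listed in 12 libraries, 6 control and 6 auxin, with fold enrichments of 2.99 to 9.39.

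More bases of Pvt1 were under peaks in late-G1 than in early-G1. Inside the window they were 3.37 and 3.38 kb in early-G1 control and 3.44 and 3.27 kb with auxin. In mid-G1 they were 2.13, 9.5 and 8.1 kb in control, the lowest being the shallowest library, and 9.72, 11.8 and 8.56 kb with auxin. In late-G1 they were 11.9 and 16.4 kb in control and 10.3 and 10.5 kb with auxin, so that all late-G1 libraries lay above all early-G1 libraries. Of the 46 Myc-Pvt1 regions, 38 had no peak in early-G1, and 1 of those was listed in all 4 late-G1 libraries. That region (chr15:62049176-62051578) lies over the start of the pseudogene H2afy3 within Pvt1 and was also listed in 4 mid-G1 libraries, 2 control and 2 auxin.

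Per 50 kb of Pvt1, most covered bases lay from 150 to 200 kb past the start. That stretch held 2.52 ± 0.00495 kb in early-G1 control and 9.85 ± 1.37 kb in late-G1 control (mean and SD, n = 2 each), against 2.87 ± 0.0933 kb and 8.65 ± 0.437 kb with auxin. Between 200 and 250 kb, peaks were listed in late-G1 only, over 1.04 kb in each control library and 0 and 0.476 kb in the auxin libraries. No peak was listed from 250 kb past the start to the window's end.

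Relative to other genes the difference at Pvt1 did not pass the test. The change in covered share from early-G1 to late-G1, centred on the library's median gene, was +0.13 ± 0.05 in control (adjusted p = 0.0965; 10.6% of genes passed) and +0.12 ± 0.05 with auxin (adjusted p = 0.127; 8.48% passed). The auxin change averaged over stages was +0.03 ± 0.02 (adjusted p = 0.736). As a share of all bases under peaks in its library, Pvt1 held 0.00483% ± 0.000301 in early-G1 control and 0.0232% ± 0.000315 in late-G1 control (SD, n = 2 each), and 0.00589% ± 0.000186 and 0.0234% ± 0.00224 with auxin.

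**Figure D3:**
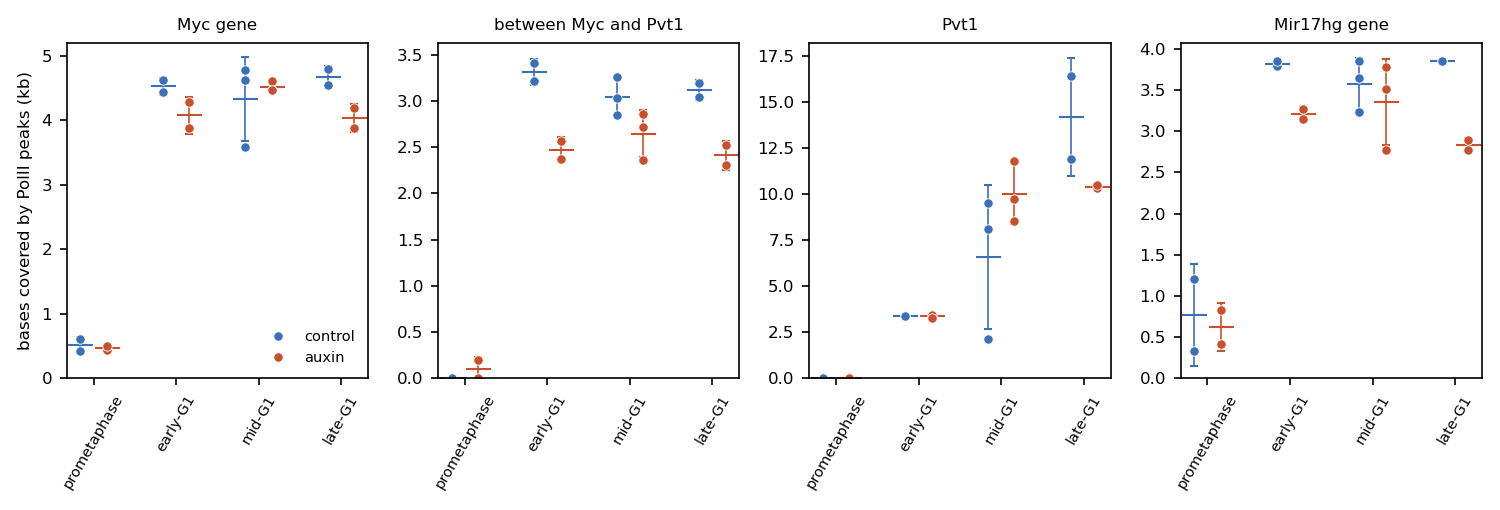
Bases covered by PolII peaks (kb) in the Myc gene, between Myc and Pvt1, in Pvt1 within the window and in the Mir17hg gene; each point is a library (blue control, orange auxin), horizontal marks are means and bars are SD. Pvt1 went from 0 kb in prometaphase to 10.3 to 16.4 kb in late-G1, and between Myc and Pvt1 the early-G1 and late-G1 auxin libraries lay below the controls. Bases are as listed and are not scaled to the total covered in each library.

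Between the end of Myc and the start of Pvt1, covered bases were 3.21 and 3.42 kb in early-G1 control and 2.56 and 2.38 kb with auxin. They were 3.03, 2.84 and 3.25 kb in mid-G1 control and 2.72, 2.86 and 2.36 kb with auxin, and 3.04 and 3.19 kb in late-G1 control and 2.3 and 2.52 kb with auxin. Auxin libraries were lower in early-G1 and late-G1, and 1 mid-G1 auxin library lay above 1 control. Per Mb under peaks in the library, this stretch held 47.4 ± 1.10 bases in early-G1 control and 43.4 ± 2.15 with auxin (mean and SD). The values were 82.0 ± 44.8 and 51.1 ± 7.53 in mid-G1, and 52.0 ± 9.28 and 54.3 ± 7.92 in late-G1. Over the whole Myc-Pvt1 window, the log2 ratio of covered bases, auxin over control, averaged −0.09 over the stages, less than its SD of 0.28.

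**Figure D4:**
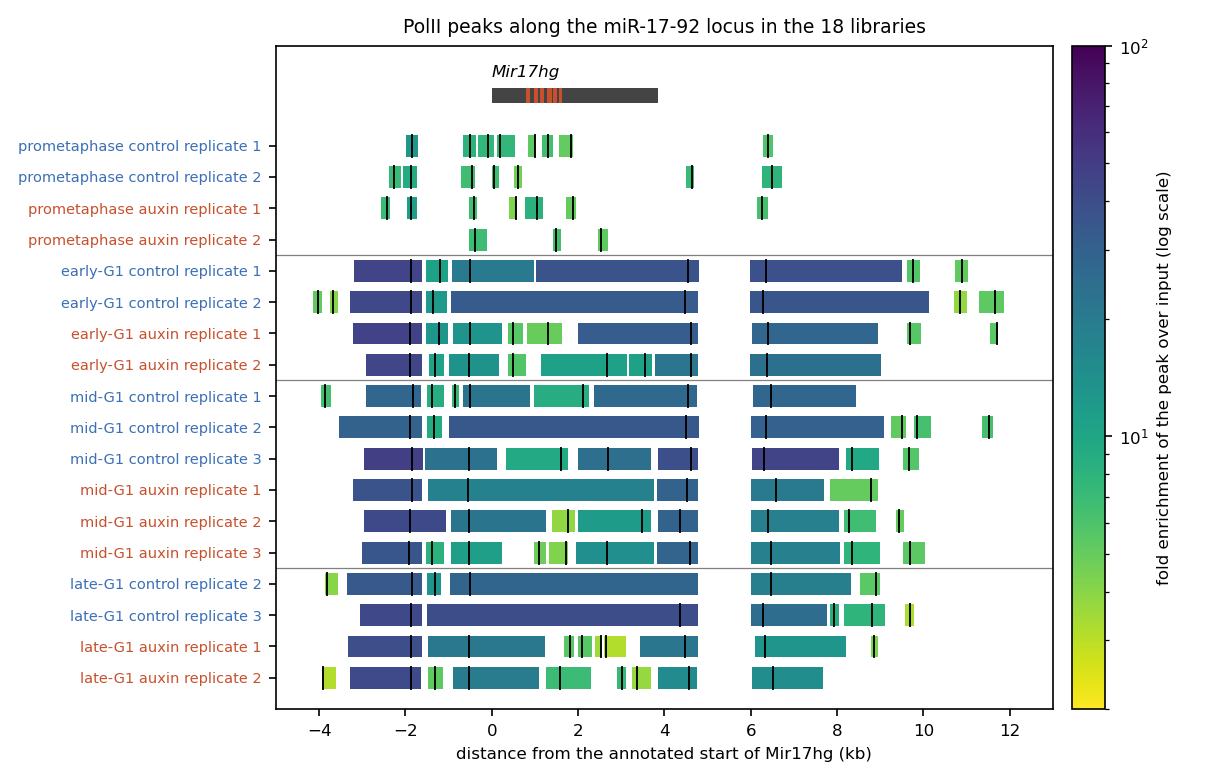
PolII peaks along the miR-17-92 locus in the 18 libraries, as distance from the annotated Mir17hg start in kb; rows, colours and ticks are as in the map of Myc, and the orange marks on the gene are the 6 miRNA genes. In post-mitotic libraries peaks began about 3 kb before the annotated start, ran through the gene, and resumed about 2 kb past its end.

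At the miR-17-92 locus the highest summit did not lie at the annotated start of Mir17hg. In all 14 post-mitotic libraries a summit was found at −1919 to −1836 bp from it, in sequence without an annotated gene and inside the GC-rich stretch printed above as the miR-17-92 upstream peak. A weaker summit, at −540 to −493 bp from the start, was separate in 11 of the 14 libraries, and another, 518 to 766 bp past the gene's end, was separate in 13. Where 1 broad peak covered the gene, the lists gave only its highest summit, so that the other summits could not be seen there.

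At the upstream summit fold enrichment was 45.3 and 42.8 in early-G1 control and 45.9 and 44.5 with auxin, 27.8, 29.3 and 48.6 in mid-G1 control and 36.6, 42.5 and 35.0 with auxin, and 34.1 and 42.7 in late-G1 control and 39.6 and 41.8 with auxin. The arms overlapped at each stage. Just before the annotated start, the separate summits had fold enrichments of 20.1 to 28.4 in 4 control libraries and 11.2 to 22.1 in 7 auxin libraries. Just past the gene's end, they had 26.7 to 40.5 in 6 control libraries and 15.4 to 32.0 in 7 auxin libraries. Their ranks among all peaks, pooled over the stages, were 732 to 2191 and 2521.5 to 6669. Late-G1 control replicate 2 had no separate summit there and is left out of these ranges. The stretches around these summits were drawn after the values were seen. How many other places separate by rank in this way was not counted.

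The miR-17-92 host gene region (chr14:115438573-115446893) joins the upstream summit, the gene and its 3′ flank, and is ranked by its strongest peak. It ranked 654 and 606 in early-G1 control against 837 and 848 with auxin, and 669, 707 and 535.5 in mid-G1 control against 1325, 1194 and 1302 with auxin. In late-G1 it ranked 986 and 1751 in control and 620 and 443 with auxin. By rank, auxin libraries were therefore lower than controls in early-G1 and mid-G1 and higher in late-G1. The fold enrichment of the same region overlapped between the arms at each stage. None of these changes passed: −0.42 ± 0.32 in early-G1 (adjusted p = 0.999), −1.01 ± 0.26 in mid-G1 (adjusted p = 0.174), +1.33 ± 0.32 in late-G1 (adjusted p = 0.258) and −0.03 ± 0.17 on average (adjusted p = 0.971).

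The early-G1 to late-G1 change of the host gene region was −1.06 ± 0.32 in control (adjusted p = 0.0761) and +0.68 ± 0.32 with auxin (adjusted p = 0.243). The difference of these courses, +1.75 ± 0.45, had an unadjusted p of 0.00146 in the limma fit and an adjusted p of 0.742. For this difference 0 of the 15784 regions passed (0%), against 837 at an unadjusted p under 0.05.

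The miR-17-92 downstream region (chr14:115448092-115452275) begins past the end of Mir17hg, with its summit 2445 to 2740 bp beyond it, in intergenic sequence. In early-G1 it ranked 1226.5 and 1327 in control and 3657.5 and 4557 with auxin. In mid-G1 it ranked 713, 1152 and 697 in control and 5410.5, 7059 and 5543 with auxin. In late-G1 it ranked 4728 and 6062.5 in control and 8077.5 and 6515 with auxin. As at the Myc downstream region, every auxin library ranked below every control library of its stage. Fold enrichment was separated in the same way, at 38.5 and 35.0 against 27.9 and 24.0 in early-G1, 27.3, 30.0 and 45.7 against 20.4, 18.4 and 18.6 in mid-G1, and 18.7 and 25.0 against 13.1 and 14.6 in late-G1.

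The average auxin change of the miR-17-92 downstream region was −1.65 ± 0.17, a rank number 3.15 times as high (limma, adjusted p = 0.000213), and it passed when each of the 14 libraries was left out. In mid-G1 the change was −2.84 ± 0.26, a rank number 7.18 times as high (adjusted p = 9e-05). In early-G1 it was −1.68 ± 0.32 (adjusted p = 0.145) and in late-G1 −0.44 ± 0.32 (adjusted p = 0.794). The difference between the late-G1 and mid-G1 changes, +2.41 ± 0.41, did not pass (adjusted p = 0.171), but passed without late-G1 control replicate 2 (+2.58, adjusted p = 0.027). That between mid-G1 and early-G1, −1.17 ± 0.41, did not pass (adjusted p = 1). With a normal score of the rank the average change was −0.61 (adjusted p = 0.146) and the mid-G1 change −0.85 (adjusted p = 0.393).

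The same region also fell along the control course. From early-G1 to late-G1 its change was −2.07 ± 0.32, a rank number 4.2 times as high (adjusted p = 0.00441), and it was the 1 region of 5 that was lower, where 1.88% of all regions tested were lower. With a normal score of the rank this change was −0.74 and did not pass (adjusted p = 0.451). With auxin the change was −0.83 ± 0.32 (adjusted p = 0.158), and 0 of 5 regions passed, where 4.6% of all regions passed in either direction. The difference of the courses was +1.24 ± 0.45 (adjusted p = 0.854).

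**Figure D5:**
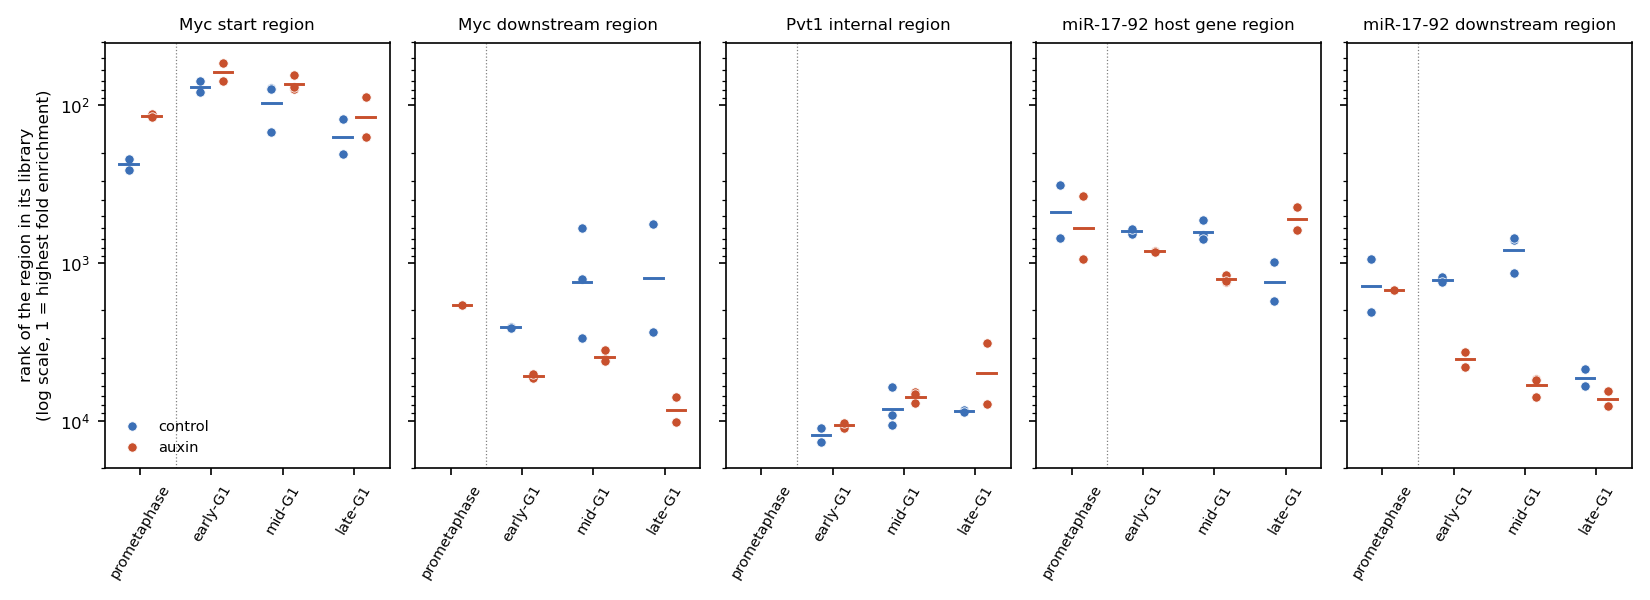
Rank of the 5 regions by library and stage on a log axis with rank 1, the highest fold enrichment, upward; each point is a library (blue control, orange auxin), bars are geometric means, and the dotted line separates the short prometaphase lists, whose ranks are not on the same footing. In both downstream regions the auxin libraries lay below the controls in early-, mid- and late-G1, while the Myc start region stayed among the first 204.5 ranks at these stages.

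The share of Mir17hg under peaks was 98.5% and 100% in early-G1 control and 84.9% and 81.8% with auxin. It was 94.8%, 100% and 83.9% in mid-G1 control and 98.3%, 91.2% and 72.2% with auxin, and 100% in both late-G1 controls against 75.2% and 72.1% with auxin. Auxin libraries were lower in early-G1 and late-G1 and overlapped in mid-G1. Per Mb under peaks in the library, Mir17hg held 54.7 ± 3.02 bases in early-G1 control and 56.3 ± 1.22 with auxin (mean and SD). The values were 96.8 ± 55.1 and 64.4 ± 8.34 in mid-G1, and 64.5 ± 13.6 and 63.6 ± 3.31 in late-G1. Early-G1 and late-G1 auxin lists also covered fewer bases in total. Whether list size accounts for the lower share of Mir17hg was not tested. The auxin change on the centred scale was −0.31 ± 0.07 and did not pass (limma, adjusted p = 0.0544). None of the 3 genes Myc, Pvt1 and Mir17hg passed for auxin. The change passed without mid-G1 auxin replicate 1 (adjusted p = 0.0406) and without mid-G1 control replicate 3 (adjusted p = 0.00729).

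The 6 miRNA genes lie close together and share the same peaks, so that they are not separate observations. Mir92-1 was covered over its whole length in all 7 post-mitotic control libraries and in 6 of 7 auxin libraries, and not at all in late-G1 auxin replicate 1. Mir19b-1 had the same counts, 7 and 6. Mir17, Mir20a and Mir19a were fully covered in all 7 controls and in 4, 4 and 5 auxin libraries, and Mir18 in 5 and 5. The gaps were in different places in different auxin libraries, as the map of the locus shows.

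Genes that work with Myc or lie downstream of these loci were read from the region over their start. Of 20 genes of the Myc network, 16 were tested, and 1 was higher and none lower with auxin (0.393% and 0.336% of all regions tested), with a median change of +0.14 against −0.01 over all tested regions. The gene that passed was Ruvbl2, an ATPase found in chromatin remodelling complexes that bind Myc, at +2.67 ± 0.25 (limma, adjusted p = 6.3e-05). Its region also covers the start of Gys1, the muscle glycogen synthase, so that the genes cannot be told apart, and its median rank was 7200 in control and 893 with auxin. Ep400, a remodelling ATPase, changed by +1.02 ± 0.24 (adjusted p = 0.0663). Mlxip and Mlx, partners in a parallel network, had changes of +0.42 (adjusted p = 0.519) and −0.35 (adjusted p = 0.657), and Max, the obligate partner of Myc, +0.27 (adjusted p = 0.698). The Mlx region also covers the start of Psmc3ip. The study gives Max as an example of a gene up-regulated after CTCF loss. It used PolII read counts over gene bodies, a measure other than the rank of the start region.

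Of 32 genes known as Myc targets, 28 were tested and none passed for auxin (limma, 0.729% of all regions passed), with a median change of −0.08. An unadjusted p under 0.05 was found for 7 genes in 5 regions, against 10.9% of all regions. The largest changes were those of Nme1 and Nme2, nucleoside diphosphate kinases with 1 shared region (+1.14, adjusted p = 0.058), Nolc1, a nucleolar protein (−0.84, adjusted p = 0.113), and Eif4a1, a translation initiation helicase (+0.78, adjusted p = 0.153). The Eif4a1 region also covers the starts of Cd68, Mpdu1 and Senp3, so that these genes cannot be told apart. In control cells from early-G1 to late-G1, 2 fell and 1 rose (1.88% and 1.91% of all regions), with a median change of −0.26 against −0.03 over all regions. Nop58, a core protein of small nucleolar ribonucleoproteins, fell by 3.56 (adjusted p = 0.000851), Ccnd2, cyclin D2, fell by 1.36 (adjusted p = 0.0299), and Polr1b, a subunit of RNA polymerase I, changed by +1.16 (adjusted p = 0.0494).

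Of 12 genes around miR-17-92, namely E2F regulators of the cluster, its targets and the host of a paralogous cluster, 10 were tested. None passed for auxin (limma, 0.729% of all regions passed), with a median change of −0.08. An unadjusted p under 0.05 was found for 2 of the 10, against 10.9% of all regions. Cdkn1a, the cell cycle inhibitor p21, changed by +0.82 (adjusted p = 0.288), E2f3 by −0.78 (adjusted p = 0.398), Hif1a by +0.30 (adjusted p = 0.846) and Mcm7 by −0.29 (adjusted p = 0.793). Along the control course 3 of the 10 fell and none rose (1.88% and 1.91% of all regions), with a median change of −0.71. Among those that fell, Cdkn1a fell by 3.66 (adjusted p = 0.00301), and Mcm7, the host of the miR-106b-25 cluster, by 2.99 (adjusted p = 0.0134) in a region shared with Ap4m1 and Cops6.

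Among the coding genes whose rank pattern was most like that of the Myc start over the 14 libraries were Rhof and Setd1b, which share a region (Pearson's r = 0.93), Mier1 (0.87), Pomgnt1 and Rad54l, which share a region (0.86), and Cox7a1 (0.86). For the host gene region of miR-17-92, the strongest of its window, they included Setd5 (0.85), Zfp91 (0.81), Rab11fip1 (0.78) and Nova1 (0.74). These are among the highest values over all coding start regions, the libraries share inputs within a stage, and no p is given.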

How the data were processed

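PolII peak lists of 18 libraries were used; 4 input samples of the series of 22 have no list. Per the submitters' processing notes and the study's methods, the authors aligned single-end reads to mm9 with Bowtie2 (2.2.9), removed low mapping quality, duplicate and blacklisted reads (SAMtools 0.1.19, bedtools 2.27.1), and called peaks per library against the stage input with MACS2 (2.1.0). Each deposited list gives, per peak, the fold enrichment over local background (a linear ratio), the −log10 p-value and −log10 q-value, an integer score (not used) and the summit. Peak lists carry no read counts, and a base without a listed peak is below the caller's threshold, not without PolII. The background in reads per kb was solved from each peak's fold enrichment and −log10 p-value, as deposited, for 76.6% or more of the peaks of a post-mitotic list.

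Peaks overlapping by 1 bp or more were merged. Each region took the within-library rank of its highest fold enrichment, and −log2 rank was fitted in limma (3.58.1, R 4.3.3) with 6 group means over the 14 post-mitotic libraries, with Benjamini-Hochberg adjustment over all regions. Gene-wide covered shares (arcsine of the square root, centred on the library median) were fitted likewise over genes longer than 1 kb with a covered base in each library. The fits were tested on simulated data. Genes were those of the GENCODE annotation of the same build. Alternatives were a normal score of the rank, centred log2 fold enrichment, joining within 1 kb, an overlap of 200 bp, −log10 q of at least 5, a replicate block, omission of each library and, chosen after seeing the data, summit clusters and differences between stages.

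The members and gene lists were chosen with earlier results of these data known. Named were the regions of the windows listed in all 14 post-mitotic libraries or in prometaphase, those over gene starts, the list members called and up to 4 others with the largest change, and the 5 coding regions most like each locus; Max, Pvt1 regions in fewer libraries and the H2afy3 region were named after their values were seen. Some genes that this rule names are not reported here. Whether equal replicate numbers pair libraries was checked by correlating deviations from group means: mid-G1 pairs gave 0.102, 0.112 and 0.293, and early-G1 and late-G1 pairs 0.0144 and 0.011, so that only mid-G1 numbers were read as pairs, from the data and not from the labels.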

Additional observations from a re-analysis of the deposited data

Results flagged for a closer look

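The auxin change of the miR-17-92 host gene region differed in direction between stages: auxin libraries ranked lower than controls in early-G1 and mid-G1 and higher in late-G1. The late-G1 change minus the early-G1 change was +1.75 ± 0.45 on the −log2 rank scale (limma, adjusted p = 0.742), and the late-G1 change minus the mid-G1 change was +2.33 ± 0.41 (adjusted p = 0.171). With all 14 post-mitotic libraries neither difference passed. Without late-G1 control replicate 2 the late-G1 minus mid-G1 difference passed, at +2.75 (adjusted p = 0.0142), where 88 in place of 0 of all regions passed. The strongest peak that gives the region its rank lay about 1.9 kb before the annotated start in 13 of the 14 libraries; in mid-G1 control replicate 2 it was the broad peak over the gene, with a fold enrichment of 34.8 against 29.3 upstream.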

How the results depend on the processing

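The 2 regions lower with auxin became 1 when peaks within 1 kb were joined, which merged the Myc regions into one, and 0 under a normal score of the rank; under that score the mid-G1 count and the control early-G1 to late-G1 count were also 0, against 1 and 1. When each mid-G1 library was left out in turn, the auxin count ranged from 1 to 2 and the mid-G1 count stayed at 1. The control course count stayed at 1 and the auxin course count at 0. Without late-G1 control replicate 2 the control course gained a lower region. Without early-G1 control replicate 2, the Pvt1 region at chr15:62043013-62049135, which only that post-mitotic library lacked, also entered the test. It was then called higher in late-G1 than in early-G1 in control, not lower. Without late-G1 auxin replicate 2 the auxin course gained a higher region. The Myc downstream call was lost without early-G1 control replicate 1 or 2, early-G1 auxin replicate 1 or 2, mid-G1 control replicate 2, mid-G1 auxin replicate 1 or 2, late-G1 control replicate 3, or late-G1 auxin replicate 1 or 2. Where an omission left 1 library in a group, that library was assumed to vary like the others. Leaving out late-G1 control replicate 2 took the late-G1 auxin count from 0 to 2. The control course of the host gene region passed without late-G1 control replicate 2 (−1.48, adjusted p = 0.0297). The auxin change of the covered share of Mir17hg ranged from −0.36 to −0.29. Directions turned for results that had not passed: the average auxin change of the host gene region was +0.0357 with log2 fold enrichment, +0.0532 with summit clusters and −0.17 to +0.10 over omissions, the mid-G1 auxin change of the Myc start was −0.0534 with log2 fold enrichment, and the control course of the Myc downstream region ranged from −0.10, without late-G1 control replicate 3, to +2.19. The log2 ratio of covered bases in the miR-17-92 window, auxin over control, went from −0.22 to −0.0944 as a share of the library's covered bases. The causes of these changes were not tested.

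With the replicate number as a block within stage, the auxin count was 2, with −1.66 (adjusted p = 0.00414) for the miR-17-92 and −1.5 (adjusted p = 0.0463) for the Myc downstream region, and the block within stage changed no call in the windows. With the block across stages the auxin change of the covered share of Mir17hg passed, at −0.36 (adjusted p = 0.00778). Over all regions and all genes the block within stage called 38 lower and 47 higher, and 3 and 3, against 53 and 62, and 29 and 44. The normal score called 2 regions lower and 1 higher with auxin, and without centring 1 gene was lower and 0 higher. Across stages, the control course count with the block was 1. The caller's threshold limits the detection of the weak Pvt1 peaks.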
